A study of Mus musculus with 6 samples.

Results

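The genes described here encode 9 receptors with which macrophages take up modified lipoproteins, bacteria, haemoglobin and dying cells: the scavenger receptor genes Marco, Msr1, Cd36, Scarb1, Olr1, Cd163 and Stab1, and the receptor tyrosine kinase genes Mertk and Axl. They were chosen by name, as probe sets annotated with exactly 1 symbol, that of a member. Earlier results of these data were known at that time, so counts of members beside shares of all genes are descriptions. The array carried 18 such probe sets, between 1 and 4 a gene, and each gene is represented by the one with the highest mean over the 6 arrays. They are 9 of 18194 genes named on the array, and all 9 were among the 13587 genes that reached the median of all probe sets on at least 1 array and so were tested.

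Gene expression had been measured in peritoneal macrophages collected after thioglycollate injection, an irritant that recruits monocyte-derived macrophages into the abdominal cavity. The Akirin2 KO group came from LysM-Cre+;Akirin2fl/fl mice, in which Cre from the lysozyme locus deletes the floxed gene in myeloid cells, and its cells were unstimulated (0 h) or given 100 ng/ml lipopolysaccharide (LPS) for 2 or 4 h. The wild-type group was treated in the same way, and both genotypes were on a mixed C57BL/6 x 129Sv background. Each of the 6 conditions had 1 array, and neither the number of mice behind a sample, nor their age, nor whether the wild-type mice carried Cre is stated in the labels.

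Scavenger receptors are defined by what they bind rather than by ancestry: they recognise polyanionic or lipid surfaces such as oxidised low-density lipoprotein, bacterial cell walls and phosphatidylserine, and deliver them to the lysosome. MERTK and AXL bind phosphatidylserine on dying cells indirectly, through bridging proteins: GAS6 for both, and protein S for MERTK. In mouse macrophages MERTK is known as the receptor of quiet clearance, and AXL as one that inflammatory stimuli bring up.

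Values are log2 expression values, on which a difference of 1 is 2-fold, and levels are compared between arrays only, not between genes. Akirin2 read 5.18, 5.54 and 4.91 in KO and 7.43, 7.47 and 7.33 in wild-type at 0, 2 and 4 h, so the KO arrays stood at 21.0%, 26.3% and 18.7% of wild-type. Of 8 macrophage markers 7, all but Itgam, were at or above the array median on all 6 arrays, Csf1r between 12.5 and 12.7. Adgre1 read 8.51, 8.56 and 8.78 in KO and 8.96, 8.94 and 9.23 in wild-type. Fcgr1 was also lower in KO at each time (5.50, 4.94 and 4.66, against 6.48, 5.73 and 5.55). The median difference of these markers, KO minus wild-type, was -0.096. The array medians lay between 3.18 and 3.23. The summed level of 10 mesothelial and fibroblast markers was lower in KO (8.93 to 9.23) than in wild-type (9.64 to 9.84), with Lum below the median on every array. Col1a1, Col1a2, Col3a1, Dcn, Pdgfra and Msln were lower in KO at each time, and the list's median difference was -0.55. Upk3b was higher in KO at 2 h (3.62, wild-type 3.31) and 4 h (3.42, wild-type 3.16), and Lum, Krt19 and Wt1 were higher in KO at some times. The summed level of 8 resident peritoneal macrophage markers was 9.56 to 9.94 in KO and 10.3 to 10.5 in wild-type, with Garnl3 below the median on every array. Cxcl13 led that sum (8.12 in KO and 9.26 in wild-type at 2 h), Prg4 was level at 2 h, Alox15 (5.45 in KO, 4.51 in wild-type) and Icam2 (4.93 in KO, 4.53 in wild-type) were higher in KO at 4 h, and the list's median difference was -0.20. The 3′ to 5′ difference of beta-actin, a sign of RNA quality, was 4.36 to 4.64 in KO and 4.09 to 4.22 in wild-type. That of Gapdh overlapped between the genotypes, at 4.34 to 4.52 in KO and 4.33 to 4.42 in wild-type. Both differences were large on every array, at least 4.09 in log2, so 5′ probe sets read far below 3′ ones in both genotypes. What this did to probe sets away from the 3′ end was not tested.

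Of the 9 receptor genes, 7 changed by 4 h of LPS over both genotypes, in both directions. Olr1, Axl, Marco and Msr1 rose, and Mertk, Cd163 and Stab1 fell, while Cd36 and Scarb1 did not pass the test. That is 4 of 9 genes higher, where 7.76% of the 13587 genes tested were called higher, and 3 of 9 lower, where 7.61% were called lower. At 2 h Olr1 and Msr1 had risen (2 of 9, against 3.96% of all genes) and Mertk had fallen (1 of 9, against 2.89%). The median 4 h effect of the members was -0.16, beside -0.026 over all genes. The test was limma's additive fit of LPS time and genotype with Benjamini-Hochberg adjustment over all genes. With 1 array a condition, the 2 genotypes stand in for replicates, so an LPS p-value measures how alike the response was in both, and may reflect technical spread only. In these bulk samples fewer cells of a type and less RNA per cell cannot be told apart.

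**Figure D1:**
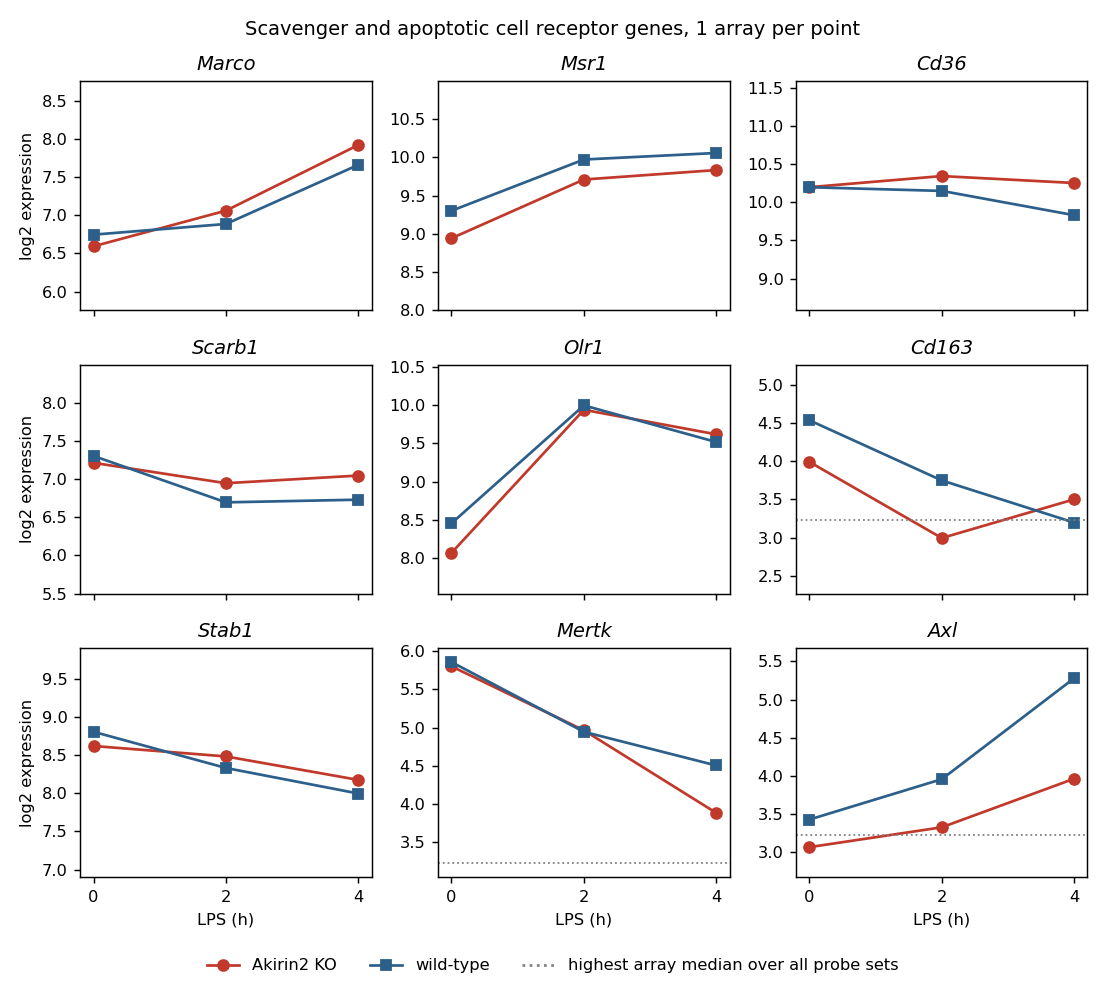
Log2 expression of each receptor gene (vertical axis, a span of 3 in every panel) at 0, 2 and 4 h of LPS (horizontal axis), with 1 array per point, Akirin2 KO as circles and wild-type as squares. Olr1 was highest at 2 h in both genotypes, Mertk was lower at each later time, and the Axl lines stood furthest apart at 4 h; the dotted line is the highest array median.

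Olr1 encodes LOX-1, a lectin-like receptor for oxidised low-density lipoprotein. Its only probe set (1419534_at) read 8.07, 9.94 and 9.62 in KO and 8.45, 10.00 and 9.52 in wild-type at 0, 2 and 4 h. Both LPS times stood above 0 h in both genotypes with no overlap, and the 2 h arrays were the highest of each genotype. The rise at 2 h was 1.71 (SE 0.17, limma adjusted p = 0.000642), or 3.27-fold, and that at 4 h was 1.31 (SE 0.17, limma adjusted p = 0.00118), or 2.48-fold. Olr1 was the only member at least 2-fold higher at 2 h than at 0 h on the single arrays, in KO (where 2.44% of all genes were) and in wild-type (2.26%). By that rule 0 members were lower at 2 h, against 0.905% of all genes in KO and 2.19% in wild-type. At 4 h in KO, Marco and Olr1 were 2-fold higher (4.07% of all genes) and Mertk 2-fold lower (2.47%). At 4 h in wild-type, Axl and Olr1 were 2-fold higher (3.72%) and Cd163 and Mertk 2-fold lower (4.75%).

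Marco and Msr1 encode the collagenous class A receptors, trimeric proteins that bind bacteria, particles and modified lipoprotein. Marco (1449498_at) read 6.59, 7.06 and 7.92 in KO and 6.74, 6.88 and 7.66 in wild-type. The 4 h arrays were the highest in both genotypes, and the 2 h arrays lay closer to 0 h than to 4 h. Its 4 h effect was 1.12 (SE 0.16, limma adjusted p = 0.00225), or 2.17-fold, and its 2 h effect 0.30 (limma adjusted p = 0.352). Marco at 4 h was 2.51-fold above 0 h in KO and 1.88-fold in wild-type. The other Marco probe set (1458297_s_at), close to the array median at 2.98 to 3.98 in KO and 3.32 to 3.68 in wild-type, was likewise highest at 4 h in each genotype.

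Msr1 (1448061_at) read 8.94, 9.71 and 9.83 in KO and 9.30, 9.97 and 10.06 in wild-type. Most of the difference was present at 2 h, and the 4 h arrays lay only 0.12 (KO) and 0.085 (wild-type) above it. The effect was 0.72 at 2 h (SE 0.15, limma adjusted p = 0.0229) and 0.82 at 4 h (SE 0.15, limma adjusted p = 0.00621), that is 1.65-fold and 1.77-fold. Further Msr1 probe sets had a similar course: 1422062_at read 7.03, 7.72 and 8.02 in KO and 7.55, 8.07 and 8.28 in wild-type, and 1425434_a_at read 4.67, 5.30 and 5.74 in KO and 5.55, 5.94 and 5.96 in wild-type. The fourth, 1425435_at, lay between 2.95 and 3.78 near the array median and was uncorrelated with the main one over the 6 arrays (r = 0.0071). The call at 2 h was lost with the probe sets averaged (0.42, limma adjusted p = 0.171) and with each of the other probe sets, of which 1422062_at gave 0.61 (limma adjusted p = 0.0514).

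Axl (1423586_at) read 3.07, 3.33 and 3.97 in KO and 3.43, 3.96 and 5.28 in wild-type. The level stood higher at each later time in both genotypes, and at 0 h the KO array lay below the array median and the wild-type array just above it, so that changes from 0 h are measured against a reading near background. The 4 h effect was 1.37 (SE 0.22, limma adjusted p = 0.00399), and the 2 h effect 0.39 (limma adjusted p = 0.382). The other Axl probe set (1438621_x_at) was below the median on all 6 arrays, at 2.50 to 2.73 in KO and 2.70 to 3.05 in wild-type, and gave a 4 h effect of 0.29 (limma adjusted p = 0.239).

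Mertk moved the opposite way from Axl. Its only probe set (1422869_at) read 5.80, 4.97 and 3.88 in KO and 5.86, 4.95 and 4.51 in wild-type, lower at each later time, with the KO array at 4 h the lowest of all. The fall was 0.88 at 2 h (SE 0.19, limma adjusted p = 0.0294), and at 4 h Mertk fell by 1.64 (SE 0.19, limma adjusted p = 0.000689), a factor of 3.11. At 4 h it was 3.78-fold below 0 h in KO and 2.56-fold in wild-type. With each array centred on its median gene the 2 h call was lost (-0.81, limma adjusted p = 0.0953).

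Cd163 and Stab1, both known as markers of anti-inflammatory or resident macrophages, fell by 4 h. CD163 takes up haemoglobin. Cd163 (1419144_at) read 3.99, 2.99 and 3.50 in KO and 4.54, 3.75 and 3.20 in wild-type, close to the array median throughout and below it on the KO array at 2 h. Both genotypes were highest at 0 h, but the lowest array was that of 2 h in KO and that of 4 h in wild-type. At 4 h Cd163 fell by 0.91 (SE 0.24, limma adjusted p = 0.0366), a call lost with quantile normalization repeated (-0.86, limma adjusted p = 0.0573), and its 2 h effect was -0.89 (limma adjusted p = 0.0685).

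Stabilin-1, encoded by Stab1, takes up acetylated lipoprotein and matrix fragments and is also made by sinusoidal endothelium. Stab1 (1450199_a_at) read 8.62, 8.48 and 8.17 in KO and 8.80, 8.33 and 7.99 in wild-type, lower at each later time in both. At 4 h it fell by 0.63 (SE 0.16, limma adjusted p = 0.0322), a factor of 1.54, and its 2 h effect was -0.31 (limma adjusted p = 0.343). The summed level of 6 endothelial markers was also lowest at 4 h, at 7.97, 7.79 and 7.37 in KO and 7.53, 7.30 and 6.79 in wild-type. Vwf made up most of that sum, while Kdr and Tek were below the median on every array and Cdh5 on 5 of 6. Their part in the Stab1 result was not tested.

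The class B receptors Cd36, which binds oxidised lipoprotein, thrombospondin and fatty acids, and Scarb1, the receptor for high-density lipoprotein, passed neither LPS test. Cd36 (1423166_at) read 10.20, 10.34 and 10.25 in KO and 10.20, 10.15 and 9.83 in wild-type. The genotypes were level at 0 h and the wild-type array at 4 h was the lowest. Its LPS effect was 0.049 at 2 h (limma adjusted p = 0.911) and -0.16 at 4 h (limma adjusted p = 0.592), and the other probe sets read between 9.43 and 10.3 in KO and between 9.02 and 10.2 in wild-type. Scarb1 (1455820_x_at) read 7.21, 6.94 and 7.04 in KO and 7.30, 6.69 and 6.73 in wild-type. Its arrays at 2 and 4 h lay below 0 h in both genotypes, with effects of -0.44 (limma adjusted p = 0.173) and -0.37 (limma adjusted p = 0.181). A second probe set, 1437378_x_at, followed it (r = 0.98 over 6 arrays), but 1416050_a_at, at 4.62, 4.37 and 4.84 in KO and 4.89, 4.66 and 4.79 in wild-type, did so less closely (r = 0.233). Both agreeing sets have names ending in _x_at, and which set measures Scarb1 best was not tested.

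**Figure D2:**
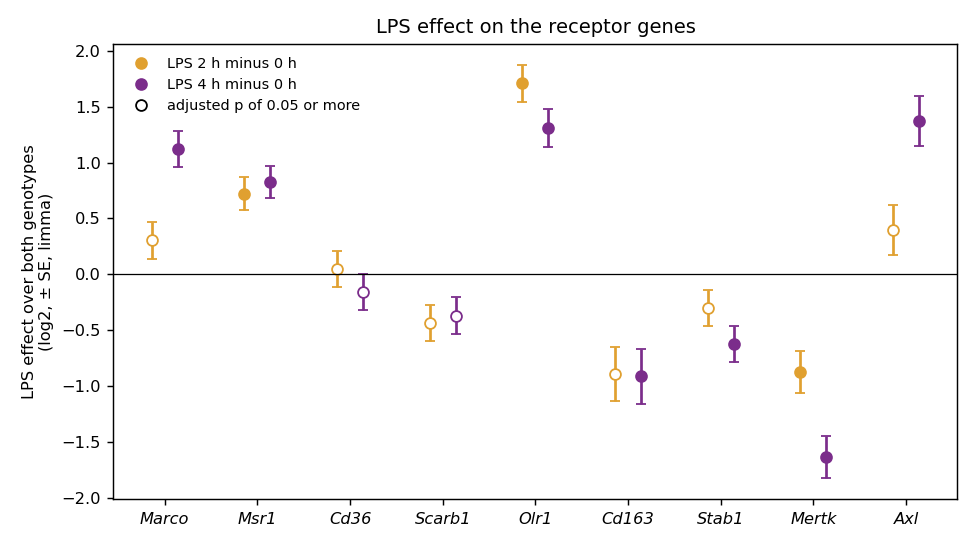
LPS effect of limma's additive fit over both genotypes (vertical axis, log2, with SE bars) for each receptor gene, at 2 h and 4 h relative to 0 h; filled points had an adjusted p under 0.05. At 4 h the effects ran from -1.64 (Mertk) to 1.37 (Axl), with 4 genes called higher and 3 lower.

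**Figure D3:**
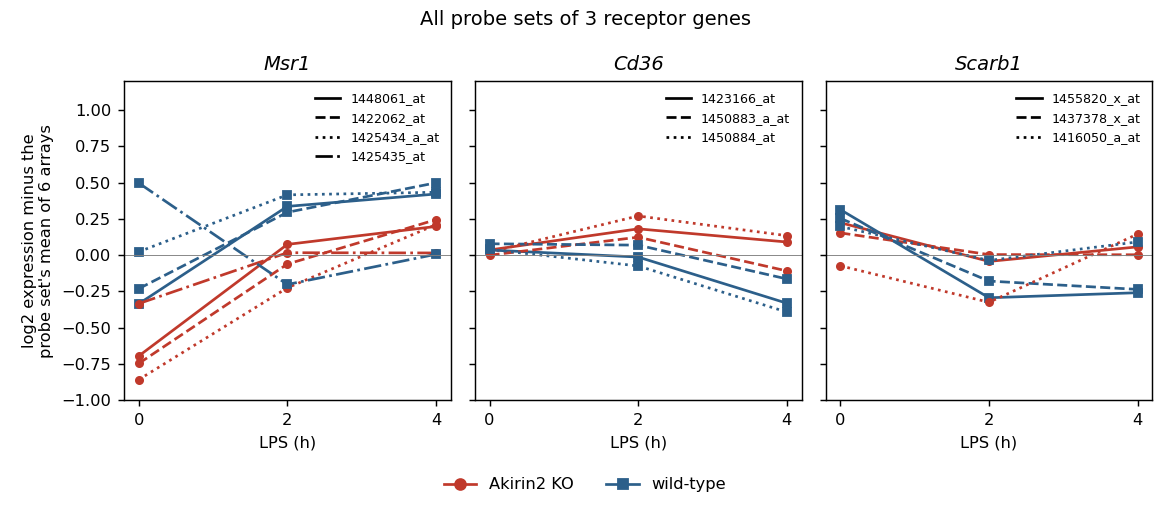
All probe sets of Msr1, Cd36 and Scarb1, as log2 expression minus the probe set's own mean of 6 arrays (vertical axis), at 0, 2 and 4 h of LPS, with Akirin2 KO as circles and wild-type as squares and a line style per probe set. Msr1 1425435_at and Scarb1 1416050_a_at departed from the other probe sets of their gene.

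RefSeq promoter windows (250 bases before to 50 after a gene's start, GRCm38.p6) were at hand for 7 of the 9 genes. Those of Olr1, Marco and Axl, with the largest rises at 4 h, and of Mertk, with the largest fall, are shown 5′ to 3′ on the gene's strand. Capitals mark matches, on either strand, to any of 5 motifs: NF-kB (GGGANNTTCC), AP-1 (TGANTCA), an interferon response element (GAAANNGAAA), an antioxidant response element (TGACNNNGC, which can overlap AP-1) and PU.1 (GAGGAA). The windows lie at chr6:129507116-129507415 (minus strand), chr1:120504975-120505274 (minus), chr7:25788684-25788983 (minus) and chr2:128698665-128698964 (plus).
Olr1: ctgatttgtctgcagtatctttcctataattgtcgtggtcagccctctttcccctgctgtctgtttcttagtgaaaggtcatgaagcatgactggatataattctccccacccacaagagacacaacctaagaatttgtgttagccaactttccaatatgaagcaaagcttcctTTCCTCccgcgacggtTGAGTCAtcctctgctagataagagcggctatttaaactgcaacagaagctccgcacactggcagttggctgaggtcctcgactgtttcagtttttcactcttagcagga
Marco: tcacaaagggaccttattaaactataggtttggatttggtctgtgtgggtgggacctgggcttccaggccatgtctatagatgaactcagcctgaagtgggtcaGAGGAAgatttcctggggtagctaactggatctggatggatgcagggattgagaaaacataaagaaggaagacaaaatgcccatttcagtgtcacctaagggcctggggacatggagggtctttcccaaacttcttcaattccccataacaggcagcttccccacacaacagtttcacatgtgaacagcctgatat
Axl: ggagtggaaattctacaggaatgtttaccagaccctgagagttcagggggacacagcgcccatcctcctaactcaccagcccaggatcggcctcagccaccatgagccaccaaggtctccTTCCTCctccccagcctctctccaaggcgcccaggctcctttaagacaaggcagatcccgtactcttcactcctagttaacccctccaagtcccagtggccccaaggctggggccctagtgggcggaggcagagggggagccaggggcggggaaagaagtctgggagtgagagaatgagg
Mertk: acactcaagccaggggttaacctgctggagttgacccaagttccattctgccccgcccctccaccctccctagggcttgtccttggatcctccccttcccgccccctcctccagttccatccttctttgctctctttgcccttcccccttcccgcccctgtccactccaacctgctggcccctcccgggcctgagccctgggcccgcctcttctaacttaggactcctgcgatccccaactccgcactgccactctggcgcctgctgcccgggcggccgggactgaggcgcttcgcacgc
Olr1 alone held an AP-1 match, starting at position -60 from the start site, among the 7 members; 7.81% of 32851 windows of this length held one. PU.1 matches were found in 4 of the 7, Olr1, Marco, Axl and Stab1, and in 28.3% of all windows. None of the 7 held the letters searched for NF-kB, the interferon element or the antioxidant element, which 1.47%, 3.44% and 12.4% of all windows held. A match is a description of letters in a short window and was not tested as a binding site.

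No member passed the genotype test over the 3 times: limma called 0 of 9 higher and 0 of 9 lower in KO, where 0.891% and 1.06% of all genes were called, so the count lies close to that background. At an unadjusted p under 0.05 there were 2 of 9, Axl and Msr1, both lower in KO, a share near the 15.4% of all genes at that p. The fit has 2 residual degrees of freedom, and its p measures how constant a difference was over time, not the spread between mice. The members' median difference was -0.11, beside -0.011 over all genes.

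Axl had the largest difference. Its KO arrays lay below the wild-type array of the same time by 0.36, 0.63 and 1.32 at 0, 2 and 4 h, and at 4 h it was the only member 2-fold apart (1 of 9 lower, against 0.618% of all genes, and 0 higher, against 0.832%). At 0 h 0 members were 2-fold higher or lower in KO (0.78% and 1.15% of all genes), and at 2 h likewise 0 (0.486% and 0.464%). Over the 3 times the difference was -0.77 (95% interval -1.19 to -0.35, limma adjusted p = 0.0815), a factor of 1.70. Without the 0 h arrays it was -0.97 (limma adjusted p = 0.00707), without the 4 h arrays -0.50 (limma adjusted p = 0.182), and under limma's trended, robust variance prior it also passed (limma adjusted p = 0.0152). With probe sets averaged, Axl at 4 h was no longer 2-fold apart. Mesothelial cells and fibroblasts are also known to express Axl. The summed level of their markers was lower in KO as well (8.93 to 9.23 in KO, 9.64 to 9.84 in wild-type), though not that of every marker. The part of these cells in the Axl difference was not tested.

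Msr1 was lower in KO at each time, by 0.36, 0.26 and 0.22 at 0, 2 and 4 h, with a difference of -0.28 over the 3 times (95% interval -0.555 to -0.0084, limma adjusted p = 0.309). The difference passed under the trended, robust variance prior (limma adjusted p = 0.0216). Its probe sets 1422062_at and 1425434_a_at were lower in KO at each time too, the second by 0.88, 0.64 and 0.22. The remaining probe set, 1425435_at, near the array median, differed by -0.83, 0.22 and 0.0093 at 0, 2 and 4 h. The mesothelial and fibroblast and the resident macrophage marker sums, and the beta-actin difference, moved with genotype as well. The Gapdh difference overlapped between the genotypes, and the part of all these in the Msr1 values was not tested. Cd36 was level at 0 h and higher in KO by 0.19 and 0.42 at 2 and 4 h, with a difference of 0.21 over the 3 times (95% interval -0.097 to 0.51, limma adjusted p = 0.516). For the other 6 genes the sign differed between times. Cd163 differed by -0.54, -0.75 and 0.31 at 0, 2 and 4 h (interval over the 3 times -0.78 to 0.12), and Mertk by -0.056, 0.019 and -0.62 (-0.57 to 0.13). The intervals of Marco (-0.21 to 0.40), Scarb1 (-0.15 to 0.46), Olr1 (-0.43 to 0.20) and Stab1 (-0.25 to 0.35) span 0, and differences within them were not detectable with these arrays.

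**Figure D4:**
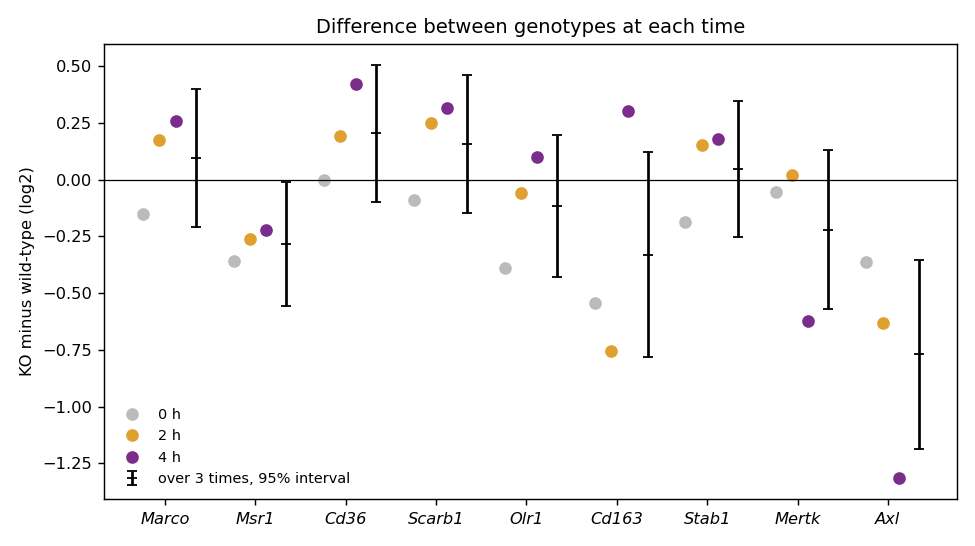
Log2 difference, KO minus wild-type, of each receptor gene (vertical axis) at 0, 2 and 4 h, with 1 array of each genotype behind each point, and the effect over the 3 times with its 95% interval from limma as a black bar. Axl lay furthest below 0 at 4 h (-1.32), and at 0 h 8 of the 9 genes lay below 0, with a median of -0.19 beside -0.074 over all genes.

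The LPS response itself was compared between the genotypes by the interaction of genotype with stimulation. Limma called 0 of 9 members in either direction, where 0.00736% of all genes were called with a larger and 0.0221% with a smaller response in KO; at an unadjusted p under 0.05 the count was also 0, where 12.8% of all genes were, so that 9 genes are too few to read it. The estimates were above 0 for 7 of 9 members, with a median of 0.32 beside 0.10 over all genes, or 0.22 relative to it. With arrays centred, which shifted the median over all genes to -0.11, they were above 0 for 6 of 9, with a median of 0.11, again 0.22 relative to all genes.

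Mertk and Axl had the negative estimates. Axl's response in KO was smaller by 0.27 at 2 h and by 0.95 at 4 h, with an interaction of -0.61 (95% interval -1.26 to 0.038, limma adjusted p = 0.418), both resting on 0 h readings near the array median. Mertk's response difference was 0.075 at 2 h and -0.57 at 4 h, with an interaction of -0.24 (interval -0.88 to 0.39, limma adjusted p = 0.779). Among the positive ones, Olr1 had 0.41 (interval -0.14 to 0.95), Marco 0.37 (-0.17 to 0.91), Scarb1 0.37 (-0.17 to 0.91) and Stab1 0.35 (-0.19 to 0.89). These intervals have 1 residual degree of freedom beside a prior worth 11.5 shared over all genes.

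Other genes of scavenging and apoptotic cell uptake were taken as lists. The lists were chosen with earlier results of these data known, so their counts are descriptions and not independent evidence of an excess. At 4 h of LPS, 9 of the 62 measured genes rose and 22 fell (7.76% and 7.61% of all genes), and at 2 h 4 rose and 7 fell (3.96% and 2.89%). Among other apoptotic cell receptors, 6 of 10 fell at 4 h and 0 rose, with a median of -0.69 beside -0.026 over all genes. The phosphatidylserine-binding receptor Cd300lf read 7.29, 6.28 and 5.12 in KO and 7.22, 6.36 and 5.44 in wild-type, and fell by 1.97 (limma adjusted p = 0.000109). The integrin subunit gene Itgb5 fell by 1.75, Cd300a by 1.28 and Havcr2, which encodes TIM-3, by 0.82. Among 11 other scavenger receptors, 2 rose and 4 fell. Cxcl16, a membrane chemokine that also binds oxidised lipoprotein, rose by 2.16, and Cd14, the LPS co-receptor, by 1.53. The mannose receptor gene Mrc1 fell by 1.46 and the lysosomal receptor gene Scarb2 by 1.10.

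Of 11 bridging molecules and soluble ligands, 1 rose and 4 fell at 4 h. Haptoglobin (Hp), a protein that binds haemoglobin, read 4.53, 5.63 and 7.604 in KO and 4.05, 4.75 and 6.73 in wild-type, and rose by 2.88 (limma adjusted p = 2.32e-05). Pros1, which encodes protein S, the ligand of MERTK, fell by 0.90 (limma adjusted p = 0.00643), and the complement genes C1qc and C1qa fell by 1.05 and 0.96. C1qb did not pass (-0.42, limma adjusted p = 0.0922). Gas6, the ligand gene for both kinases, stayed near the array median, at 2.87 to 3.01 in KO and 2.62 to 3.56 in wild-type. Of 8 genes of the engulfment machinery Elmo2 (-1.14) and Dock2 (-0.68) fell. Of the sheddase genes Adam17, whose product cleaves MERTK from the cell surface, rose by 0.69 (limma adjusted p = 0.016), and Adam10 did not pass.

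Between the genotypes, 4 of these 62 genes were higher and 5 lower in KO, 5 of them bridging molecules or soluble ligands, where 0.891% and 1.06% of all genes were called. Mfge8, a secreted bridge between phosphatidylserine and integrins, read 9.82, 9.77 and 9.71 in KO and 8.46, 8.41 and 8.13 in wild-type, higher by 1.44 (limma adjusted p = 0.00198). The integrin gene Itgb3 read 6.35, 6.37 and 5.55 in KO and 4.44, 4.06 and 3.91 in wild-type, higher by 1.95 (limma adjusted p = 0.00121). In both genes every KO array stood above every wild-type array. Apoe was lower in KO by 1.13, C1qa by 1.08 and C1qc by 0.71, and Hp was higher by 0.74. C1qb, which encodes the remaining C1q chain, was not called (-0.13, limma adjusted p = 0.645). Of the other scavenger receptors 0 of 11 were called, and of the engulfment genes 0 of 8, counts near that background. The summed mesothelial and fibroblast markers, the summed resident macrophage markers and the beta-actin difference given above moved with genotype too. The Gapdh difference overlapped between the genotypes, and the part of all these in the gene differences was not tested.

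**Figure D5:**
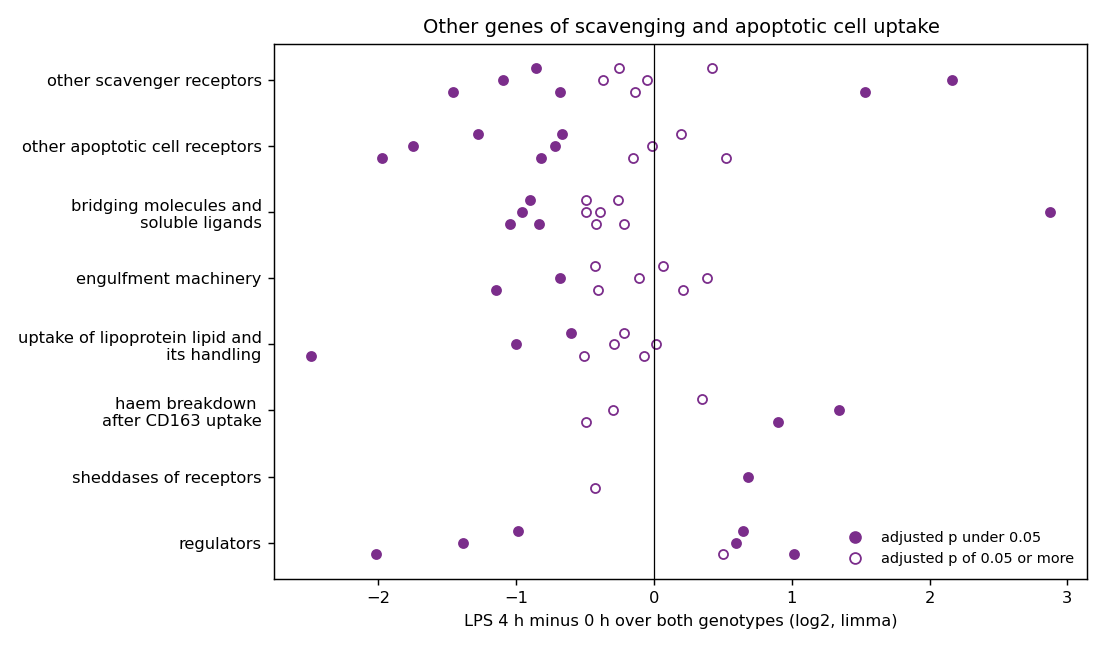
LPS effect at 4 h relative to 0 h over both genotypes (horizontal axis, log2, limma) of 62 other genes of scavenging and apoptotic cell uptake, 1 point a gene, by list (vertical axis); filled points had an adjusted p under 0.05. The filled points of other apoptotic cell receptors all lie below 0 (6 genes), and Hp is the point furthest right at 2.88.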

How the data were processed

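Peritoneal macrophages of 2 genotypes at 3 LPS times were measured on 6 Affymetrix arrays, 1 a condition. The authors deposited 1 log2 value for each probe set and array, obtained with RMA, per the submitters' processing notes; its version is not given in the sources used here. RMA as commonly run makes the arrays' distributions alike by quantile normalization, which removes a shift shared by most genes. Precision is limited by the number of arrays.

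Of 45101 probe sets, 34958 had 1 symbol in the platform annotation, 932 several and 9211 none here. A gene with several was represented by the probe set brightest on average. Tests covered the 13587 genes at or above an array's median at least once. limma 3.58.1 (R 4.3.3; lmFit, eBayes, Benjamini-Hochberg over all genes, threshold 0.05, two-sided) fitted LPS time and genotype, and then their interaction with stimulation. Single arrays were compared by a 2-fold rule with no test. The genotype fit was also run on data simulated from the additive model, with constant genotype shifts and independent noise. Such data hold no spread between mice, so the run cannot show how the fit handles it. Named genes are the 9 members, Akirin2, up to 4 called genes of each list and contrast, and the 3 genes most like a member. Members, lists and marker sets were chosen with earlier results of these data known.

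Alternatives were other floors, averaged probe sets, no probe sets that may cross-hybridise, 2 scalings and eBayes with trend and robust. An adjusted p of 0.1, leaving out a time, and a 1.5-fold rule were others. Probe sets that may cross-hybridise were taken by name alone, as those ending in _s_at, _x_at or _a_at. Other probe sets and leaving out the KO array at 0 h were added after seeing the data.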

Additional observations from a re-analysis of the deposited data

Results flagged for a closer look

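Cd36 was flagged because the genotypes moved in opposite directions: both LPS arrays of KO lay above the KO array at 0 h, and both of wild-type lay below the wild-type array at 0 h. The changes from 0 h were 0.15 and 0.055 in KO and -0.048 and -0.37 in wild-type at 2 and 4 h. The response in KO minus that in wild-type was 0.194 at 2 h and 0.421 at 4 h. The test of that difference, limma's interaction, gave 0.31 (95% interval -0.24 to 0.86, adjusted p = 0.66). Probe set 1450884_at gave 0.36 and 0.545 at the same times, and 1450883_a_at gave 0.13 at each, but there the KO array at 4 h also lay below its 0 h array (-0.11). Opposite movement of single arrays was looked for between the genotypes over both LPS times only.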

How the results depend on the processing

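The 4 h counts of members called higher (4 in every setting run) and lower (2 or 3) moved by no more than 1.5 times. At 2 h, 1 in place of 2 members was called higher with probe sets averaged. In place of 1, 0 were called lower with arrays centred, and 2 (Mertk and Cd163) with eBayes set to trend and robust, at an adjusted p of 0.1, without the 4 h arrays and without the KO array at 0 h. In the genotype effect, in place of 0, 2 members were lower in KO with trend and robust (Axl and Msr1), and 1 (Axl) at an adjusted p of 0.1 and without the 0 h arrays. For this effect, leaving out only the KO array at 0 h gave the same fit as leaving out both 0 h arrays, so it adds nothing. The interaction called 0 members in every setting run, though over all genes it called 155 larger and 101 smaller responses with trend and robust, 20 and 42 with quantile normalization again, 44 and 36 at an adjusted p of 0.1, and 0 in either direction with no floor, the higher floor, arrays centred or without cross-hybridising probe sets. Over all genes, the genotype effect called 121 higher and 144 lower in KO, against 419 and 464 with trend and robust, 244 and 288 at an adjusted p of 0.1, 370 and 294 without the 0 h arrays, 72 and 86 without the 2 h arrays, 81 and 95 with probe sets averaged, and 76 and 66 with arrays centred. The 2 h effect called 538 higher and 393 lower, against 841 and 828 with trend and robust, and the lower count was 683 at an adjusted p of 0.1, 639 without the 4 h arrays, 969 without the KO array at 0 h and 254 with arrays centred. On single arrays the 1.5-fold rule counted, with the share of all genes in brackets, 2 members lower in KO than in wild-type at 2 h (2.72%) and 2 at 4 h (3.32%), 2 higher (6.53%) and 2 lower (4.93%) at 2 h in KO, 4 higher at 4 h in KO (10.2%), 2 higher (5.38%) and 3 lower (9.21%) at 2 h in wild-type and 4 higher at 4 h in wild-type (8.16%); with probe sets averaged 0 were lower in KO at 4 h, and with arrays centred 1 (Cd163) was lower at 2 h in KO. Of the lists' genes, 3 in place of 5 were lower in KO with arrays centred.

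Effects that changed sign were small and passed in no setting run, apart from Msr1: its probe set 1425435_at gave -0.17 at 2 h and -0.071 at 4 h. Cd36 at 2 h was -0.011 with quantile normalization again and -0.11 without the KO array at 0 h. Olr1's genotype effect was 0.022 without the 0 h arrays or without that array, and Stab1's -0.0039 without the 2 h and -0.017 without the 4 h arrays. Msr1's interaction was -0.097 with arrays centred. Scarb1's probe set 1416050_a_at gave -0.17 for genotype and 0.056 at 4 h, and Marco's 1458297_s_at -0.0325 for genotype. The causes were not tested. Without probe sets named _s_at, _x_at or _a_at, Scarb1 and Stab1 had none left, and whether theirs cross-hybridise was not tested. No paired analysis was possible because each condition has 1 array; LPS time is already a term of the fit. Values near the array median (Cd163, Axl at 0 h) limit how far a fall, or a rise from 0 h, can be read.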

Other observations

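Genes that handle what the receptors bring in also differed with LPS over both genotypes. Of 8 measured genes of lipid handling, 3 fell at 4 h and 0 rose (7.61% and 7.76% of all genes): Abcg1, which exports cholesterol to lipoprotein, fell by 2.49 (limma adjusted p = 6.68e-05), and the fatty acid binding protein gene Fabp4 and the lipid droplet gene Plin2 fell too, Plin2 by 0.60. Abcg1 read 9.24, 8.33 and 7.07 in KO and 9.31, 7.93 and 6.51 in wild-type, lower at each later time. Of 5 genes of haem breakdown, haem oxygenase Hmox1 rose by 1.34 (limma adjusted p = 0.00109) and Blvrb, a biliverdin reductase, by 0.90 at 4 h, while Cd163 fell. Blvrb was also lower in KO, by a log2 difference of -0.71 (limma adjusted p = 0.0269). Of 7 transcription regulators measured, 3 rose and 3 fell at 4 h, beside the same shares. Pparg, the lipid-sensing nuclear receptor known to activate Cd36, fell by 2.02 (limma adjusted p = 0.000157), Maf by 1.39 and Rxra by 0.99, and Nfe2l2, which encodes NRF2, rose by 1.01. Cd36 itself passed no LPS test.

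For the members with a range of at least 1 over the 6 arrays, the genes of most similar course were listed among 2234 genes with such a range. The points share the 6 arrays and their 2 genotypes, so such correlations are descriptions only. Mertk was followed most closely by Cd300lf (r = 0.985), Tusc1 (0.984) and Stmn1 (0.983). Axl was followed by Ogfr (0.998), Nmi (0.996) and Ms4a4c (0.994), of which Ms4a4c read 4.12, 4.26 and 5.61 in KO and 4.68, 5.45 and 7.36 in wild-type. Olr1 was followed by Snx18 (0.998), Gpr132 and Rab20 (0.996 each), Marco by Ralgapa2 (0.999), Adgb (0.992) and Clmp (0.985), and Msr1 by Srxn1 (0.997), Gm46390 (0.997) and Vcam1 (0.996). Cd163 had the least close neighbours, Smim4 (0.975), Mfsd3 (0.975) and Evi5 (0.970). At r of 0.95 or more lay 146 genes for Msr1, 100 for Olr1, 44 for Axl, 41 for Mertk, 29 for Marco and 9 for Cd163.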
